A study of Homo sapiens with 9 samples.

Results

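TRIM16, TRIM16L and FBXW10B are 3 of the 61487 gene identifiers counted in RNA-seq libraries of SH-SY5Y cells, a human neuroblastoma line. They were chosen by their symbols, after their transcript levels across the doses of citrinin were known. All 3 lie on the short arm of chromosome 17, in or beside copies of a duplicated segment, and all 3 passed the filter on low counts. SH-SY5Y cells were kept for 72 h with vehicle, with 10 µM citrinin or with 20 µM citrinin, and each group held 3 libraries numbered 1 to 3. Citrinin is a toxin of moulds that grow on stored grain, and the series asked how transcripts of these neuron-like cells respond to it. Nothing in the sources says that libraries of a group came from separate cultures; a p-value here measures the spread between these samples, which may be technical. Because the doses chose the genes, their values across doses are given as a description, with no test.

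TRIM16 (tripartite motif containing 16) encodes an E3 ubiquitin ligase of the TRIM family that lacks the RING domain most family members carry. It binds galectin-3 and the autophagy proteins ULK1, BECN1 and ATG16L1 at damaged lysosomes, and it acts on the KEAP1-NRF2 pathway, through which cells answer oxidative and electrophilic stress. TRIM16L (TRIM16 like) is a shortened relative of TRIM16, and FBXW10B encodes a protein with an F-box, by which substrate receptors join SCF ubiquitin ligases, and WD repeats.

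The genes share sequence with each other or with a close copy nearby, which bears on every count below. TRIM16 (ENSG00000221926) spans chr17:15627960-15684311 on the minus strand and FBXW10B (ENSG00000241322, called CDRT1 in GENCODE 29) spans chr17:15565483-15619512 on the same strand, 8447 bases farther along in the direction of transcription. TRIM16L (ENSG00000108448) lies 3013686 bases away on the plus strand at chr17:18697998-18736118, and 7905 bases beyond it starts FBXW10 (ENSG00000171931), the close copy of FBXW10B, at chr17:18744024-18779349. These coordinates are those of GENCODE 29 on GRCh38. The order ZNF286A, TRIM16, FBXW10B, TVP23C at the one place is matched by ZNF286B, TRIM16L, FBXW10, TVP23B at the other, in the opposite orientation. GENCODE 29 types TRIM16L as protein coding, with 1 coding transcript of 16, whereas RefSeq lists it as a transcribed pseudogene.

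In the longest coding transcripts, 1030 of 1044 aligned coding bases (98.7%) were identical between TRIM16 and TRIM16L, and the 1044 bases were all of the coding sequence of TRIM16L, against 1692 in TRIM16. The 14 differing bases lay between coding positions 795 and 1575 of TRIM16, with up to 220 identical bases in a row between them. FBXW10B and FBXW10 were identical at 1992 of 2009 aligned coding bases (99.2%), ZNF286A and ZNF286B at 94.9% and TVP23C and TVP23B at 98.5%. The stretches of 90 coding bases with the most differences are printed because, within the aligned parts, reads over such bases are what tells the copies apart. Sequence outside the aligned parts can also do so: 1822 of the 3342 bases of the TRIM16 transcript aligned to that of TRIM16L. Capitals mark the bases that differ within a pair. The first pair covers coding positions 1042 to 1131 of TRIM16 and 394 to 483 of TRIM16L, with 4 differences, and the other covers positions 1918 to 2007 of FBXW10B and 2005 to 2094 of FBXW10, with 5.
TRIM16: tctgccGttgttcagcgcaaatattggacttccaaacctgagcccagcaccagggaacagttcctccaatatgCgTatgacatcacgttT
TRIM16L: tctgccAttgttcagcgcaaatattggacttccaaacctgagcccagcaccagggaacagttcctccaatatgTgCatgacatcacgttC
FBXW10B: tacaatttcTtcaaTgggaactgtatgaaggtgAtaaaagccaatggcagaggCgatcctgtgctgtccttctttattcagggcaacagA
FBXW10: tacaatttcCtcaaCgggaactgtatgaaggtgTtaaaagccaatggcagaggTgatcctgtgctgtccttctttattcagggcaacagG

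The counting left out reads that map to several places or overlap more than 1 gene. Of the distinct 75-base words in annotated transcripts, 19.3% of those of TRIM16, 27.2% of TRIM16L, 38.7% of FBXW10B and 33.6% of FBXW10 also occurred in transcripts of another locus. At 50 bases the shares were 28.9%, 42.2%, 48.7% and 43.0%, and at 100 bases they were 13.2%, 18.5%, 30.9% and 26.5%. For TRIM16 the other locus was TRIM16L. The read length is not given in the sources used here, so these shares are only a guide to the part of each transcript whose reads could not be placed. Places outside annotated transcripts were not compared. Gene overlap removes a further part: 71.3% of the exonic bases of TRIM16 and 63.3% of those of FBXW10B belong to no other annotated gene, against 97.1% for TRIM16L, while no exon of FBXW10 is shared. TRIM16 and FBXW10B are both overlapped on their own strand by ENSG00000251537, which shares 1327 exonic bases with TRIM16 and 1342 with FBXW10B. It was assigned 0 to 6 reads per library. Reads on the shared bases were left out, so these counts do not show how much of its RNA was present. The levels of the 3 genes are therefore uncertain, and reads that differ between the copies carry the comparison.

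Promoter windows of 250 bases before to 50 bases after the RefSeq start (GRCh38.p14) were listed for TRIM16, FBXW10B and FBXW10. The windows of FBXW10B and FBXW10 are shown by the FBXW10B sequence because the copies share nearly all of it: 298 of 300 bases (99.3%) were identical, and the differences, counted from the 5′ end of the window with the base of FBXW10B first, were C73T and C78T. Capitals mark those bases. The TRIM16 window is printed beside it, since both genes stood higher at 20 µM.
FBXW10B, chr17:15619655-15619954, minus strand: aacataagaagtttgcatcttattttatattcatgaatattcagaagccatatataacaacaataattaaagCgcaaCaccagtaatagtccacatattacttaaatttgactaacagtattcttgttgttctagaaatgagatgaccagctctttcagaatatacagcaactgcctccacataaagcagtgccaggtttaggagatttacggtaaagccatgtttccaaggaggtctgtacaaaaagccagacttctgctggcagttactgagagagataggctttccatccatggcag
TRIM16, chr17:15682902-15683201, minus strand: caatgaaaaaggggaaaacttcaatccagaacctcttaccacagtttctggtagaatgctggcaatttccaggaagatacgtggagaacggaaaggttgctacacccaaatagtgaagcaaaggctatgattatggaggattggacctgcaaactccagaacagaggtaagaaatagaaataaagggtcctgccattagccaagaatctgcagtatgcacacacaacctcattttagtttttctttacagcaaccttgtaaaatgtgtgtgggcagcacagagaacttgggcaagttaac
The antioxidant response element core TGACNNNGC, the kind of site NRF2 binds, and the AP-1 site TGANTCA were searched on both strands, and some sequences match both. None of the 3 windows held either, while 13.3% of 35116 promoter windows held the first and 7.71% held the other. The TRIM16 window lies inside the span given above for the gene, so sequence before the start of that span in the direction of transcription was not searched. The search says only that these letters do not occur in these windows.

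Sequencing depth was similar in all libraries, at 15678443 to 19604367 reads assigned to genes, 76.4% to 78.0% of reads. All 12 markers of sympathetic neuroblasts, such as HAND2 and DBH, were above 1 CPM, the read count scaled to library depth, on average, their summed level ran from 3001 to 3802 CPM in vehicle and from 2496 to 3481 CPM at 20 µM, and the 4 epithelial markers together stayed at or below 2.90 CPM, with KRT5 at 0; blood and endothelial markers reached 0.578 and 0.982 CPM and the 4 glial markers 6.87 CPM. All 5 mesenchymal markers were present too, at 3016 to 4537 CPM in vehicle and 3359 to 4865 CPM at 20 µM, FN1 and VIM included; their part in the results was not tested. Same-numbered libraries resembled each other across the doses, so where calls differ, results of a model blocked by replicate number stand beside those of the unblocked one. Without the block edgeR's quasi-likelihood test with Benjamini-Hochberg adjustment called 0 of 17806 genes in each of the 3 dose comparisons, although 387, 115 and 210 genes had an unadjusted p below 0.05 for 20 µM against vehicle, 10 µM against vehicle and 20 µM against 10 µM, in that order. With the block it called 393 genes (2.21%; 0.848% higher and 1.36% lower), 6 genes (0.0337%, all higher) and 79 genes (0.444%; 0.180% higher and 0.264% lower). DESeq2 without the block called 10, 0 and 0.

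TRIM16 was higher with citrinin, by 1.49-fold at 20 µM. In vehicle its level was 23.9, 19.4 and 20.3 CPM in replicates 1, 2 and 3, from 408, 342 and 346 reads. At 10 µM it was 27.4, 28.0 and 25.2 CPM, and at 20 µM it was 38.4, 28.8 and 27.4 CPM, from 637, 503 and 479 reads. Both citrinin groups lay wholly above vehicle, whereas the 10 µM and 20 µM groups overlapped and replicate 1 at 20 µM stood well above the other libraries. The means were 21.2 ± 2.35, 26.9 ± 1.45 and 31.5 ± 6.02 CPM (SD, n = 3 each), and the fitted log2 difference from vehicle was 0.34 ± 0.14 (SE) at 10 µM and 0.57 ± 0.14 at 20 µM. Without replicate 1 at 20 µM the latter was 0.40 and the difference between the doses fell from 0.23 ± 0.14 to 0.06.

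TRIM16L had the same order of group means as TRIM16. Its level was 29.7, 30.6 and 28.3 CPM in vehicle replicates 1, 2 and 3, from 508, 538 and 481 reads. It was 38.7, 39.5 and 32.6 CPM at 10 µM, and 58.4, 51.5 and 43.2 CPM at 20 µM, from 968, 900 and 757 reads. The 3 groups did not overlap at any step, and replicate 3 was the lowest library of each group. The means were 29.5 ± 1.16, 37.0 ± 3.76 and 51.1 ± 7.59 CPM (SD, n = 3 each), and the log2 differences were 0.32 ± 0.12 (SE) at 10 µM, 0.79 ± 0.12 at 20 µM and 0.47 ± 0.12 for 20 µM against 10 µM, the 20 µM level being 1.73-fold that of vehicle.

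FBXW10B was scarce and had the widest fold difference of the 3. Reads numbered 8, 6 and 16 in vehicle replicates 1, 2 and 3, then 19, 13 and 16 at 10 µM and 22, 38 and 31 at 20 µM. In CPM these were 0.468, 0.341 and 0.940, then 1.10, 0.839 and 0.818, and 1.33, 2.18 and 1.77, where 3 reads equal 0.153 to 0.194 CPM depending on the library. The 20 µM libraries lay above all the others, while vehicle replicate 3 fell among the 10 µM libraries. The means were 0.583 ± 0.316, 0.918 ± 0.155 and 1.76 ± 0.425 CPM (SD, n = 3 each), and the log2 difference at 20 µM was 1.59 ± 0.41 (SE), beside 0.65 ± 0.42 for the lower dose and 0.93 ± 0.39 for 20 µM against 10 µM. Vehicle replicate 3 weighed on these values: without it the differences from vehicle were 2.10 at 20 µM and 1.17 at 10 µM.

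**Figure D1:**
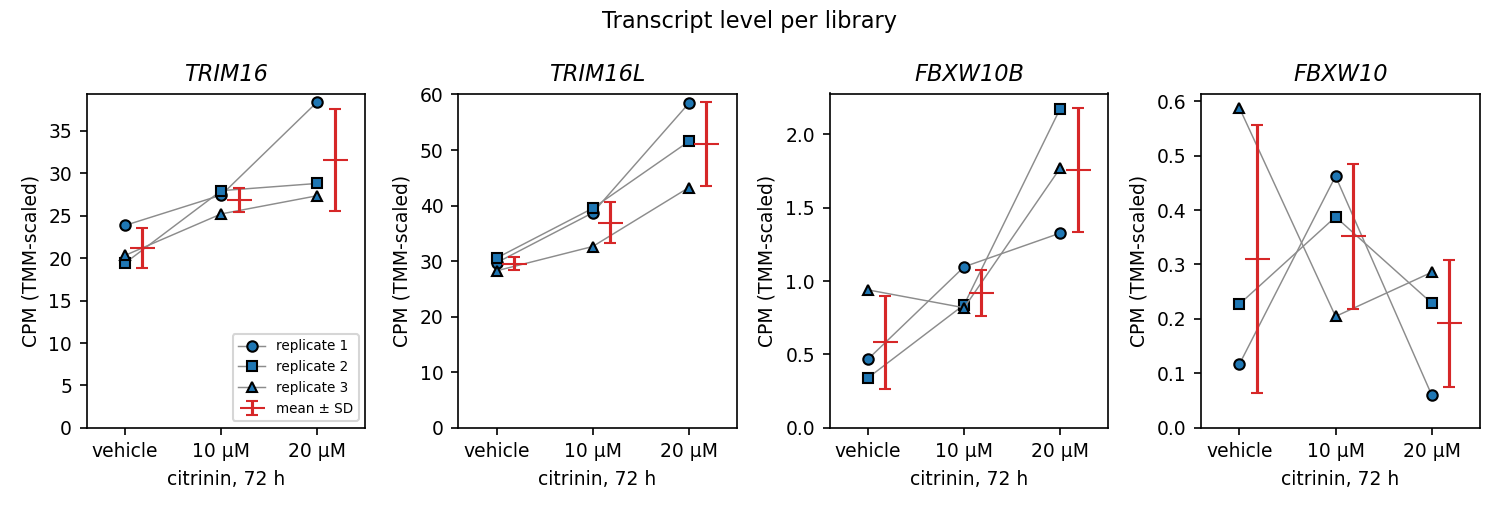
Level in TMM-scaled CPM (vertical axis, from 0, a separate scale for each gene) of TRIM16, TRIM16L, FBXW10B and FBXW10 in the 9 libraries by dose of citrinin; lines join same-numbered replicates, and red marks give the mean and SD of 3 libraries. TRIM16L separates the doses, TRIM16 overlaps between 10 µM and 20 µM, and FBXW10 stays below 0.6 CPM with overlapping groups.

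At 20 µM against vehicle the groups did not overlap for any of the 3 genes, as for 3.41% of the 17806 tested genes that lay wholly above vehicle. At 10 µM this held for TRIM16 and TRIM16L (2.06% of genes), and at 20 µM against 10 µM for TRIM16L and FBXW10B (2.37% of genes). Within same-numbered libraries, TRIM16 and TRIM16L were ordered vehicle, 10 µM, 20 µM in 3 of 3 sets, an order seen in 1.48% of genes, and FBXW10B was not, because its replicate 3 was lower at 10 µM than in vehicle. By the fitted log2 difference at 20 µM, TRIM16 lay above 97.5%, TRIM16L above 98.9% and FBXW10B above 99.96% of tested genes. The dose comparisons share the vehicle libraries, and these shares describe how the genes were chosen rather than test them. In bulk RNA, more cells expressing a gene and more of its RNA per cell cannot be told apart.

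Levels can be compared between genes only per length of transcript. In vehicle TRIM16L stood at 6.82 ± 0.268 CPM per kilobase of exon, TRIM16 at 3.76 ± 0.416 and FBXW10B at 0.136 ± 0.0737 (SD, n = 3 each), and the order TRIM16L, TRIM16, FBXW10B held in each of the 9 libraries. Among the 13728 protein-coding genes that passed the filter on low counts, whose median was 5.56 CPM per kilobase, TRIM16L lay above 55.7%, TRIM16 above 38.8% and FBXW10B above 2.21%. Coding genes with fewer reads were left out of these ranks. At 20 µM the levels were 11.8 ± 1.75, 5.59 ± 1.07 and 0.410 ± 0.0991 CPM per kilobase. Exons whose reads could not be placed count in these lengths, so levels of genes with close copies may be understated.

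The balance between TRIM16L and TRIM16 was much the same in vehicle and at 10 µM. TRIM16L had 1.25, 1.57 and 1.39 reads per TRIM16 read in vehicle replicates 1, 2 and 3, 1.41, 1.41 and 1.29 at 10 µM, and 1.52, 1.79 and 1.58 at 20 µM. The 20 µM libraries overlapped the vehicle libraries and lay above those at 10 µM, with means of 1.40 ± 0.164, 1.37 ± 0.0681 and 1.63 ± 0.141 (SD, n = 3 each). Each same-numbered 20 µM library was above its vehicle library.

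FBXW10, the close copy of FBXW10B, had few reads at every dose. It had 2, 4 and 10 reads in vehicle replicates 1, 2 and 3, 8, 6 and 4 at 10 µM, and 1, 4 and 5 at 20 µM, too few to pass the filter, and its groups overlapped throughout. Of the reads assigned to either copy in the summed libraries of a group, FBXW10B took 65.2% in vehicle (30 of 46, exact 95% binomial interval 49.8% to 78.6%), 72.7% at 10 µM (48 of 66, 60.4% to 83.0%) and 90.1% at 20 µM (91 of 101, 82.5% to 95.1%). The intervals cover counting error only, not the spread between libraries, and PCR copies are not independent molecules. By library the share was 80%, 60% and 61.5% in vehicle replicates 1, 2 and 3. It was 70.4%, 68.4% and 80% at 10 µM, and 95.7%, 90.5% and 86.1% at 20 µM. FBXW10B was chosen with its levels across the doses known, so these shares are a description. The overlapping gene ENSG00000251537 had 4, 8 and 11 reads in the summed groups, which leave out reads on exons shared with FBXW10B. The difference between FBXW10B and FBXW10 was not tested. The promoter windows of the pair, printed above, differ at 2 bases.

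The tested genes around the 3 had log2 differences at 20 µM between -0.31 and 0.39. Of 63 annotated genes within 250 kb, 15 had enough reads, and none passed the adjusted threshold in any comparison, with or without the block. At 2.21% of all tested genes called with the block at 20 µM, a count of 0 among 15 is not particular to these genes. Their median log2 difference at 20 µM was 0.16 in the blocked fit, beside a median of -0.0016 over all tested genes. In the segment of TRIM16 and FBXW10B, the blocked log2 difference at 20 µM was 0.05 ± 0.08 (SE) for ZNF286A, which encodes a zinc-finger protein, and 0.28 ± 0.22 for TVP23C, a Golgi membrane protein gene that lies 1887 bases from FBXW10B. In the other segment it was 0.38 ± 0.19 for ZNF286B and 0.16 ± 0.06 for TVP23B. The remaining tested neighbours were CDRT4 at 0.39 ± 0.41, FAM83G at 0.28 ± 0.13, UBE2SP1 at 0.24 ± 0.43, TEKT3 at 0.21 ± 0.45, ENSG00000265519 at 0.19 ± 0.22, PAIP1P2 at 0.09 ± 0.11, ENSG00000276855 at 0.08 ± 0.16, MEIS3P1 at 0.06 ± 0.17, PRPSAP2 at -0.03 ± 0.07, FOXO3B at -0.16 ± 0.12 and PPIAP53 at -0.31 ± 0.54. Whether any of these differences is smaller than that of the 3 genes was not tested.

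**Figure D2:**
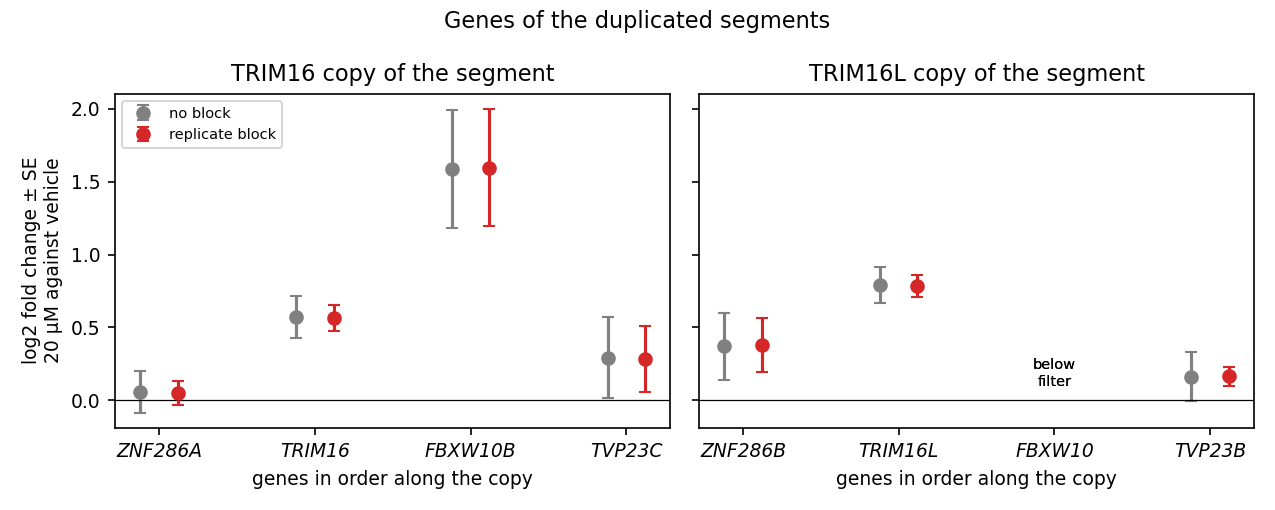
Log2 fold change at 20 µM against vehicle with its SE (vertical axis) for the genes of the 2 segments, in their order along each copy, from edgeR without (grey) and with (red) the replicate block. TRIM16, FBXW10B and TRIM16L stand above their neighbours, which lie between 0.05 and 0.38 with the block; FBXW10 was below the filter.

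Replicate number is the one grouping that the choice of the genes did not use. With the dose in the model, edgeR's quasi-likelihood F-test gave an adjusted p of 0.0189 for TRIM16 and 0.0103 for TRIM16L, whereas it was 0.824 for FBXW10B. Such calls were common, at 43.3% of tested genes. TRIM16 averaged 29.9, 25.4 and 24.3 CPM in the libraries numbered 1, 2 and 3 over the doses, TRIM16L 42.3, 40.5 and 34.7 CPM, and FBXW10B 0.964, 1.12 and 1.18 CPM. The spread between numbers was 0.28 and 0.25 on the log2 scale for TRIM16 and TRIM16L, larger than in 44.3% and 39.3% of genes, so neither stood out. These calls were not firm: DESeq2's likelihood ratio test gave adjusted p of 0.105 and 0.0670. The TRIM16 call was lost without vehicle replicate 1 (adjusted p 0.0880), without replicate 1 at 20 µM (0.290) or without replicate 3 at 20 µM (0.0843). The TRIM16L call was lost without replicate 3 at 10 µM (0.0897) or at 20 µM (0.191).

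Other TRIM genes, which encode ubiquitin ligases of many functions, were called about as often as genes at large. Of 66 protein-coding TRIM genes besides TRIM16 and TRIM16L, 43 were tested; with the block at 20 µM against vehicle 0 rose and 1 fell, TRIM24, a transcriptional co-regulator, at -0.19 ± 0.05 on the log2 scale (SE, adjusted p 0.0444, edgeR), beside 2.21% of all tested genes called in either direction. The TRIM24 call was absent without the block and, with it, was lost when any of the 3 vehicle libraries, replicate 3 at 10 µM, or replicate 2 or 3 at 20 µM was left out (adjusted p 0.0884 to 0.554), each of which left 0 called genes in the list. Without replicate 2 at 10 µM the list held 3 and without replicate 1 at 20 µM 2. None was called at 10 µM or between the doses. Their median log2 difference at 20 µM was 0.01. Among the 45 family members with the pair included, TRIM16L and TRIM16 held ranks 2 and 3, after TRIM54 at 0.87 ± 0.51, a muscle gene present at 0.446 CPM in vehicle. The ranks of the pair describe how it was chosen and test nothing.

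**Figure D3:**
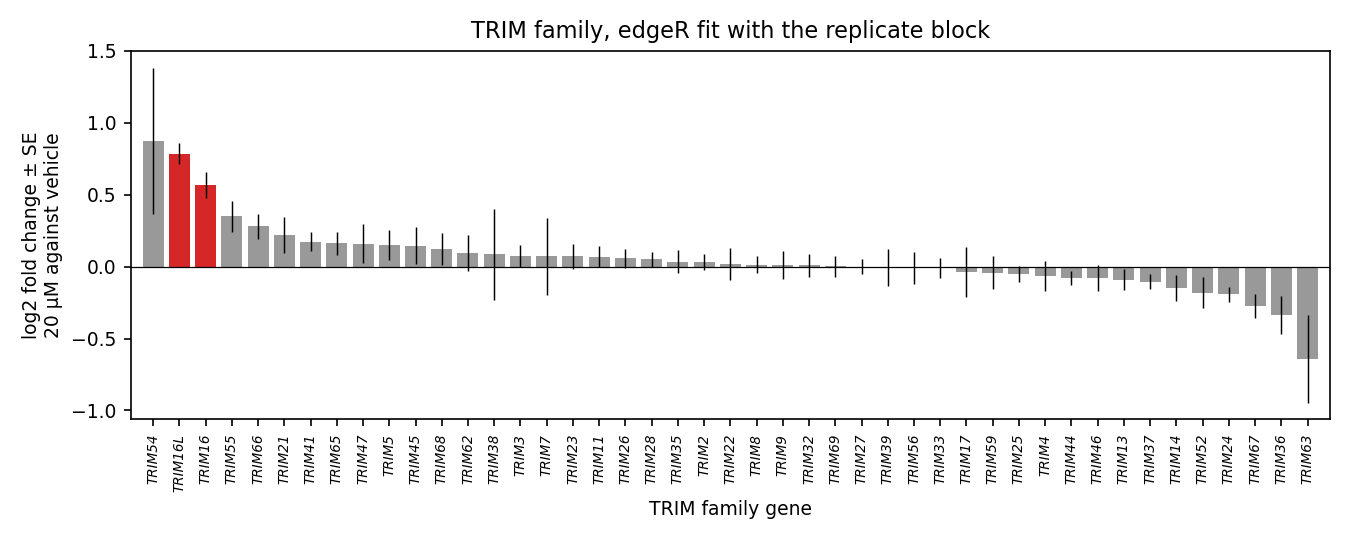
Log2 fold change at 20 µM against vehicle with its SE (vertical axis, edgeR with the replicate block) for the 45 tested TRIM genes, in order of size, with TRIM16 and TRIM16L in red. TRIM16L and TRIM16, at 0.78 and 0.57, follow the scarce TRIM54, and the values run down to -0.64 for TRIM63.

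In the F-box WD family, 8 of the 10 genes besides FBXW10B were tested and 0 were called in any comparison, a count not particular to so few genes where 2.21%, 0.0337% and 0.444% of all tested genes were called with the block. Their blocked log2 differences at 20 µM ran from -0.06 for FBXW8 to 0.07 for BTRC, which encodes the receptor that marks beta-catenin for degradation, with a median of -0.0068. FBXW10B, at 1.60 with the block, was the highest of the 9, a rank that describes how it was chosen and tests nothing.

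Among the partners of TRIM16 in autophagy and lysosome repair, the receptor gene SQSTM1 and the cytokine gene IL1B rose. Of 40 genes, all tested, 2 rose at 20 µM against vehicle with the block (0 without it), beside 0.848% of all tested genes higher: SQSTM1, which encodes the autophagy receptor p62, by 0.30 ± 0.05 on the log2 scale (SE, adjusted p 0.000229) and IL1B, the interleukin whose secretion TRIM16 assists, by 0.33 ± 0.06 (adjusted p 0.000600). Without vehicle replicate 2 the list held 1 called gene and IL1B had an adjusted p of 0.0525, and without replicate 2 at 10 µM or replicate 1 at 20 µM it held 5 and without replicate 1 at 10 µM 3, while SQSTM1 was called whichever library was left out (largest adjusted p 0.0188). The list's median was 0.09. With the block IL1B also rose between the doses, by 0.39 ± 0.06 (adjusted p 0.000338), the 1 gene of the list called there (0 without the block, 0 with it when replicate 3 at 10 µM was left out, and 3 without replicate 1 at 20 µM); its level differed widely among replicates, at 89.8 ± 62.0 CPM in vehicle (SD, n = 3). The galectin genes LGALS3 and LGALS8, whose products mark ruptured vesicles, had blocked differences of -0.01 ± 0.09 and -0.01 ± 0.06 at 20 µM. For the autophagy initiators ULK1 and BECN1 they were 0.18 ± 0.07 and 0.09 ± 0.07, and for ATG16L1, needed for LC3 lipidation, -0.01 ± 0.06, none past the threshold.

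Many genes of the NRF2 pathway rose. The list holds 35 genes, all tested, and 18 rose and 0 fell at 20 µM against vehicle with the block (0 without it), 5 rose at 10 µM and 9 between the doses. The shares of all tested genes higher in those comparisons were 0.848%, 0.0337% and 0.180%. The 18 calls at 20 µM became 15 to 20 over the libraries left out in turn. The 5 at 10 µM became 2 without any vehicle library or without replicate 3 at 10 µM, 3 without replicate 3 at 20 µM and 8 without replicate 1 at 20 µM. The 9 between the doses ran from 5 without replicate 3 at 10 µM to 12 without replicate 1 at 20 µM. The smallest p-values at 20 µM belonged to NQO1, a quinone reductase, at 0.98 ± 0.06 (SE, adjusted p 1.22e-11), TXNRD1, thioredoxin reductase, at 0.70 ± 0.05 (1.44e-10), GCLM, a subunit of the enzyme that starts glutathione synthesis, at 0.93 ± 0.07 (5.69e-10), and OSGIN1 at 1.28 ± 0.11 (2.34e-08), all on the log2 scale. The list's median was 0.39. The regulators themselves did not pass: NFE2L2, which encodes NRF2, had 0.13 ± 0.06 (adjusted p 0.301) and KEAP1, its inhibitor, 0.18 ± 0.07 (adjusted p 0.259). The differences of TRIM16 and TRIM16L at 20 µM, 0.57 ± 0.09 and 0.78 ± 0.07 with the block, fall inside the range of this list, from -0.09 to 1.70, and above its median. Both genes and the list were chosen with earlier results known, so their place describes the choice and tests nothing.

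The last list holds genes tied to the actions described for TRIM16 in keratinocytes and in differentiation. Of 13 genes, 9 were tested and 1 rose at 20 µM with the block, VIM, which encodes the intermediate filament vimentin and is also among the mesenchymal markers, by 0.21 ± 0.05 on the log2 scale (SE, adjusted p 0.0136; not called without the block), beside 0.848% of all tested genes higher, and the list median was 0.05. The VIM call was lost without any 1 of the vehicle libraries or without replicate 3 at 10 µM or 20 µM (adjusted p 0.0521 to 0.232), and without replicate 1 at 20 µM the list held 2 called genes. IVL, LORICRIN, CYP26A1 and CYP26B1 had too few reads to be tested.

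Genes whose profile over the 9 libraries came closest to each of the 3 were found by the root mean square difference between log2 CPM profiles, each centred on its own mean, among protein-coding genes of at least 2 CPM (0.5 CPM for FBXW10B). For TRIM16L, genes among the closest 5 of 12304 were AKR1C3, an aldo-keto reductase, at 0.084, NQO1 at 0.17, ELAC1 at 0.19 and PIR at 0.19, beside a median of 0.38 over all candidates. For TRIM16 they were DHRS12 at 0.11, ISY1 at 0.11, C4orf48 at 0.12 and CTSK at 0.13, with a median of 0.31. For FBXW10B, with its few reads, the closest of 13636 were SLC7A11, the cystine transporter, at 0.37, SLCO2B1 at 0.37, AKR1C1 at 0.38, HMOX1, the haem-degrading enzyme, at 0.42 and GCLM at 0.42, with a median of 0.73. AKR1C3, NQO1, PIR, SLC7A11, AKR1C1, HMOX1 and GCLM are on the NRF2 list, which holds 35 of the 17806 tested genes. The candidates were a smaller pool, 12304 or 13636 genes, and the list's share of that pool is not given. The genes and the list were chosen with earlier results known, so closeness to genes that differ by dose follows in part from the choice and tests nothing. AKR1C3 rose from 20.9 ± 1.02 CPM in vehicle to 39.1 ± 5.85 CPM at 20 µM (SD, n = 3), by 0.90 ± 0.08 on the log2 scale with the block (SE, adjusted p 1.08e-07). TRIM16 and TRIM16L differed from each other by 0.15, and FBXW10B from them by 0.57 and 0.50. The measure is over 9 libraries that share doses and replicate numbers, and it says nothing of function.

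**Figure D4:**
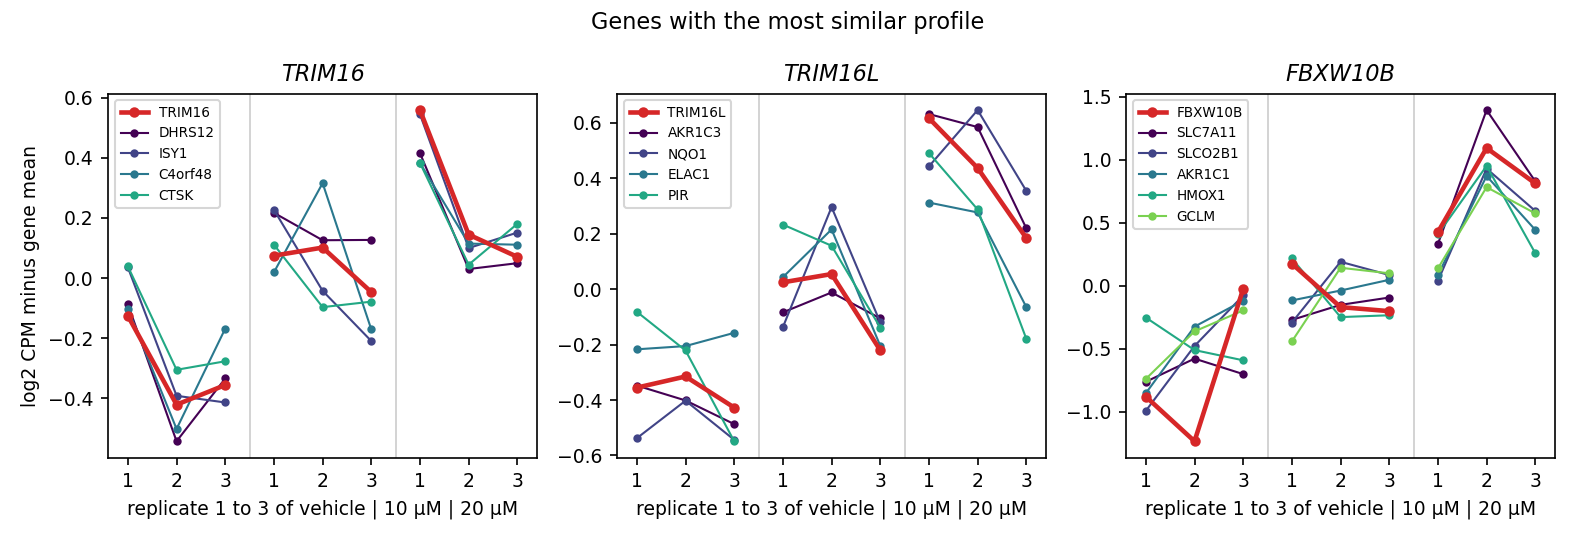
Log2 CPM minus the gene's own mean (vertical axis) over replicates 1 to 3 of vehicle, 10 µM and 20 µM (horizontal axis) for TRIM16, TRIM16L and FBXW10B (red) and the genes with the closest profiles named in the text. AKR1C3 tracks TRIM16L with a root mean square difference of 0.084. Among the vehicle libraries FBXW10B spreads more widely than the genes closest to it, whereas at 20 µM SLC7A11, SLCO2B1, AKR1C1 and HMOX1 spread more widely than FBXW10B and GCLM does not.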

How the data were processed

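The submitters' processing notes name FastQC, cutadapt, STAR, edgeR and the build GRCh38. Neither annotation release nor read length is given there. The authors deposited raw counts per gene for each library; the count over both strands was used, since the strands were about equal, so antisense genes cannot be told apart. They also deposited a table of log2 CPM values for 36838 genes, which edgeR reproduced from the counts to within 1e-06 for 100% of values.

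Counts of 17806 genes passing filterByExpr were TMM-scaled and fitted with edgeR's robust quasi-likelihood model on all 9 libraries with 3 groups (edgeR 4.0.16 in R 4.3.3; DESeq2 1.42.0 and limma 3.58.1 for alternatives), with Benjamini-Hochberg adjusted p below 0.05. Blocking by replicate number, taken from the sample titles, was the alternative: all 9 same-numbered pairs deviated together (r 0.457 to 0.685; different numbers -0.545 to 0.139), so the numbers were taken to pair the samples. Residual degrees of freedom were 6 without and 4 with the block. Scripts were tested on simulated data. Libraries of 1 group differed by more than sampling noise.

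The 3 genes, the lists and the named genes were chosen with earlier results of these data known. Named besides the 3 genes are FBXW10, overlapping genes, tested neighbours within 250 kb, 8 partners of TRIM16, up to 4 called genes per list with the smallest p, and the 5 closest profiles, of which one gene is not reported here; AKR1C3, TRIM54, VIM and the ends of list ranges were named after their values were seen. Exon positions are from GENCODE 29, which holds 58312 of the identifiers; sequences are from its transcripts (coding windows) and from RefSeq (promoters), aligned with Biopython 1.88. TRIM16L had no match among the promoters. Alternatives were DESeq2, limma-voom, DESeq2's size factors, no filter, log2(CPM + 1) and log2(CPM + 0.1) from the deposited table, summed single-strand counts, and each library left out.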

Additional observations from a re-analysis of the deposited data

How the results depend on the processing

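The fold differences of the 3 genes kept their sign under the alternatives computed for them, which were all those named except limma-voom, run for counts of genes and for replicate number. At 20 µM against vehicle, leaving out 1 library gave log2 differences of 0.40 to 0.66 for TRIM16, 0.68 to 0.90 for TRIM16L and 1.31 to 2.10 for FBXW10B; at 10 µM 0.28 to 0.43, 0.27 to 0.41 and 0.38 to 1.17; between the doses 0.06 to 0.32, 0.36 to 0.57 and 0.75 to 1.10. The low count of FBXW10B made it depend on the scale: with log2(CPM + 1) its difference at 20 µM was 0.81. The adjusted p for replicate number ran from 0.00263 to 0.290 for TRIM16, 0.00664 to 0.191 for TRIM16L and 0.554 to 0.963 for FBXW10B over the libraries left out, and DESeq2's likelihood ratio test gave 0.105 and 0.0670 for TRIM16 and TRIM16L; the cause was not tested.

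The replicate block changed the counts over all genes most, from 0 in each comparison to 393 at 20 µM against vehicle, 6 at 10 µM and 79 between the doses. With the block DESeq2 called 257, 49 and 90 and limma-voom 330, 4 and 68. Without it DESeq2 called 10 at 20 µM against vehicle, edgeR with no filter on low counts 6, and edgeR with 1 library left out 0 to 1, the 1 without replicate 1 at 20 µM. With the block, the counts over libraries left out ran from 96 (without vehicle replicate 2) to 729 (without replicate 2 at 10 µM) at 20 µM against vehicle, from 2 (without any vehicle library or replicate 3 at 10 µM) to 16 (without replicate 1 at 20 µM) at 10 µM, and from 10 (without replicate 3 at 10 µM) to 301 (without replicate 1 at 20 µM) between the doses. The block changed the spread (coefficient of variation 0.195 without, 0.0552 with) and not the fold differences of the 3 genes beyond 0.02. FBXW10B rests on 6 to 38 reads per library, so the size of its differences is not well known. Its direction was known when the gene was chosen and was not tested, and its replicate 3 was lower at 10 µM than in vehicle. FBXW10, at 1 to 10 reads, was too scarce to be tested, so shares of the pair's reads carry wide intervals.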
